A study of Mus musculus with 2 samples.

Results

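The genes described here are the secreted and membrane-bound axon guidance cues and their receptors: ephrins and Eph receptors, netrins with DCC and the UNC5 receptors, netrin-Gs, semaphorins with plexins and neuropilins, and Slits with Robos. Members were taken by gene symbol among genes with a protein-coding transcript, without use of any measured value, which gave 71 of 55536 annotated genes, 37 ligands and 34 receptors. They were measured by total RNA sequencing of the left cerebral cortex of 2 male B6CASTF1/J mice, F1 hybrids of a B6 and a CAST parent, aged 36 days and untreated as far as the labels say. Both libraries, each from 300 ng of RNA, belong to 1 group, so no conditions can be compared and the results are levels, isoforms and the spread between the mice, called mouse 1 and mouse 2 by their replicate numbers. The labels give both animals 1 shared donor identifier, so how far the spread is biological is not known. With 2 mice an exact permutation test cannot go below a p of 0.5, and none was run.

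Guidance cues steer growing axons by attraction or repulsion at the growth cone, the motile tip of the axon. Ephrins are held on the surface of one cell and bind Eph receptor tyrosine kinases on another. Netrins attract through DCC and repel through UNC5 receptors, Slits repel through Robos, and semaphorins act on plexins, with neuropilins as binding partners for most secreted class 3 semaphorins. In the cortex after birth many of the same proteins are known to act at synapses and dendritic spines.

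Nearly all guidance genes were expressed in this cortex. A level of at least 1 TPM in both mice was reached by 68 of the 71 members (95.8%), 36 ligands and 32 receptors, where 58.6% of all protein-coding genes reached it. TPM is a transcript level per length, scaled to a fixed sum per library, so it can be compared between genes. The median member stood at 13.9 TPM in mouse 1 and 14.6 in mouse 2, and the median protein-coding gene at 3.49 and 3.82. Of the members, 40 reached 10 TPM in both mice and 5 reached 50, namely Epha4, Sema7a, Robo2, Sema6b and Plxnd1. No share of all protein-coding genes was computed at these higher levels, so both counts only describe the members. The 3 members below the threshold of 1 TPM were Efna4, Epha1 and Epha2. Efna4 stood at 0.07 and 0.54 TPM, from 2 and 15 counts. Epha1 stood at 0.06 and 0.08, from 2 and 4 counts, and Epha2 at 0.73 and 0.64. Epha2 passed the threshold in the read-based table, at 3.55 and 3.43. In whole tissue, fewer cells of a type and less RNA per cell cannot be told apart.

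The total expected count was 29915463 in mouse 1 and 27988085 in mouse 2, and members held 0.393% and 0.413% of it. All 8 cortical markers, such as Slc17a7 and Tbr1, were expressed, and of 8 markers of other brain regions only Ttr, a choroid plexus gene, was (8.60 and 5.35 TPM). Markers of oligodendrocytes, astrocytes, microglia, endothelial cells and interneurons were expressed in 6 of 6 cases each, so the levels below are those of a mixed tissue. The 2 libraries differed by more than counting noise (chi-square per degree of freedom of 10.6 over 20190 genes). That spread does not show that they came from different animals, and they were counted as 2 replicates because the labels describe them so.

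**Figure D1:**
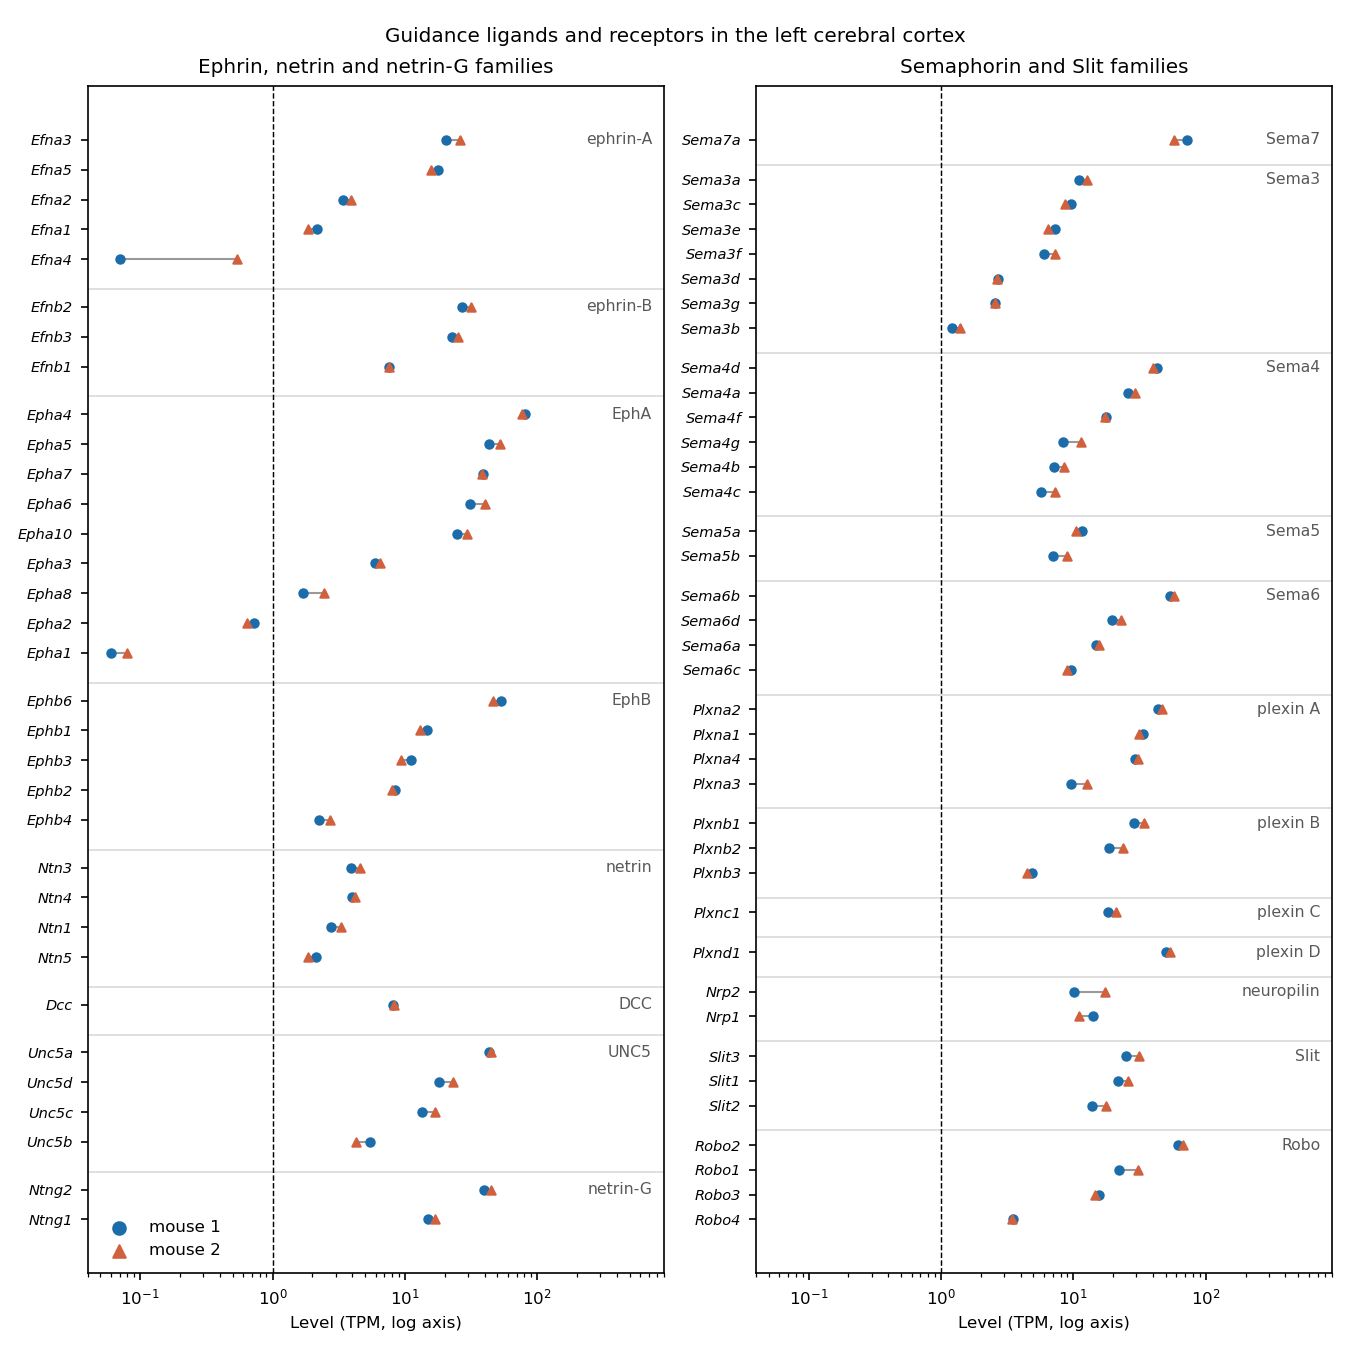
Level of each of the 71 members in TPM (log axis) in mouse 1 (circles) and mouse 2 (triangles), grouped by subclass and ordered by mean within it, with a dashed line at 1 TPM. Epha4 is the highest at 80.4 and 76.5, and Efna4, Epha1 and Epha2 lie left of the line.

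Among Eph receptors the A class carried most of the transcripts, 236 ± 14.1 TPM in sum (SD, n = 2) against 84.8 ± 7.28 for the B class. Epha4, a receptor for both ephrin classes (ENSMUSG00000026235.14, mm10 chr1:77367185-77515088, minus strand), was the most abundant member of the whole set at 80.4 TPM in mouse 1 and 76.5 in mouse 2, though in the read-based table Ephb6 was slightly above it in mouse 2 (110.8 and 109.7). Epha5 followed at 43.2 and 52.0, with no overlap between the genes. Epha7 (38.7 and 38.0) and Epha6 (31.0 and 40.5) overlapped across the mice, so their order is not settled. Epha10, which is thought to lack kinase activity, stood at 24.6 and 29.7, Epha3 at 5.98 and 6.43, and Epha8 at 1.7 and 2.45. In the B class Ephb6, a receptor with an inactive kinase, led at 53.4 and 46.6 and made up 59.3% and 58.5% of EphB transcripts. The kinase-active members were lower: Ephb1 at 14.7 and 13.1, Ephb3 at 11.1 and 9.37, Ephb2 at 8.49 and 7.95, and Ephb4 at 2.25 and 2.71.

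The ephrins were divided more evenly. The GPI-anchored ephrin-As summed to 46.1 ± 3.22 TPM (SD, n = 2), of which Efna3 gave 20.4 and 26.3, Efna5 gave 17.8 and 15.8, Efna2 gave 3.4 and 3.93, and Efna1 gave 2.16 and 1.86. The ephrin-Bs, which span the membrane and can signal in the cell that carries them, summed to 61.0 ± 5.14. Efnb2 stood at 27.2 and 31.8, Efnb3 at 22.6 and 25.3, and Efnb1 at 7.61 and 7.54, an order with no overlap between neighbours. Efna1, Efna3 and Efna4 lie in a row on chromosome 3 with 32.8 and 10.4 kb between them, and in this row only the middle gene was above 10 TPM.

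Several members were spread over isoforms that differ in coding sequence, and the sequences that separate them are shown because gene-level values hide them. Efna5 had a main form, Efna5-201, with an 81-base exon that Efna5-202 skips (chr17:62613316-62613396, minus strand). It is shown with the exon in capitals and 15 coding bases on each side in lower case, from the GENCODE M21 transcripts on the mm10 reference:
Efna5 alternative exon: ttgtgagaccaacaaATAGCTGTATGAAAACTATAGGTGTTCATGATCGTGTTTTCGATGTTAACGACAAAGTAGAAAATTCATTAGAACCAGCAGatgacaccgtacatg
Transcripts with this exon held 67.6% of Efna5 TPM in mouse 1 and 71.4% in mouse 2, and 73.9% and 76.5% in the table quantified directly from the reads. The skipping form was therefore the minor one in both mice and both tables.

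The leading forms of Epha7 stop early. Beside the full-length Epha7-201, with 2994 coding bases, the annotation holds Epha7-202 (1830) and Epha7-204 (1878), and truncated EphA7 without the kinase domain is known as a partner that alters the receptor's response to ephrin. Both leave the shared exon at the same point and end in tails of their own, given in capitals up to the stop codon (chr4:28946219-28946250 and chr4:28966523-28966602, plus strand):
Epha7-202 tail: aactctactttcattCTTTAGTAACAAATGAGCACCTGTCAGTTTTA
Epha7-204 tail: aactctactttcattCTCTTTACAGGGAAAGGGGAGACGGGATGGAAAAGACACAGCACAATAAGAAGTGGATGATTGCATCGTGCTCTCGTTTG
Epha7-202 stood at 10.2 and 12.7 TPM in mouse 1 and mouse 2, Epha7-204 at 10.9 and 8.36, and Epha7-201 at 7.67 and 6.99. Each short form exceeded Epha7-201 in both mice, while the short forms changed order between them. The read-based table gave shares of 25.8% and 24.9% for the short forms and 18.8% for Epha7-201. A further full-length form, Epha7-203, held 8.06% ± 0.53 (SD, n = 2). With it, full-length forms summed to 10.9 and 9.91 TPM, close to either short form alone.

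Epha4 was carried mainly by Epha4-201 (63.9% and 60.0% of its TPM), Ephb6 by Ephb6-201 (73.5% and 67.2%), Efna3 by Efna3-201 (84.9% and 65.2%) and Efnb2 by Efnb2-201 (78.6% and 81.6%). The Ephb6 share was 46.7% in the read-based table. For Epha5 the leading coding form was Epha5-201 at 20.4% and 20.2% in the alignment-based table, whereas Epha5-204 led the read-based one at 19.0%. Neither form dominated: 2 alternative exons, of 156 and 66 bases, were held by 59.6% and 57.1%, and by 75.9% and 70.5%, of the transcripts that hold or skip them. Retained-intron models held 28.4% and 36.0% of Epha5 TPM.

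In the netrin system the receptors outweighed the diffusible ligands. Secreted netrins summed to 13.4 ± 0.83 TPM (SD, n = 2), the least of any ligand group. Ntn1, the classical midline attractant, stood at 2.78 and 3.3, Ntn4, a laminin-binding netrin of basement membranes, at 3.97 and 4.22, Ntn3 at 3.94 and 4.61, and Ntn5 at 2.13 and 1.86. Ntn3 is uncertain because it overlaps Tbc1d24 on the same strand, a gene with 3226 and 3031 counts against 313 and 333 for Ntn3. Ntn3 and Ntn4 overlapped across the mice.

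The attractive receptor Dcc stood at 8.06 and 8.22 TPM and the UNC5 receptors together at 84.5 ± 6.34. Unc5a (ENSMUSG00000025876.15, chr13:54949411-55006018, plus strand) led with 43.3 and 44.7. Unc5d (18.0 and 23.0) and Unc5c (13.4 and 17.0) followed, and Unc5b was lowest at 5.44 and 4.3. The Dcc form with the longer coding sequence, Dcc-202, held 56.3% and 53.6% of its TPM.

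Unc5a and Unc5d differed in how often they kept an exon that the UNC5 genes share. Each of the 4 has a coding exon of 168 bases, which encodes a thrombospondin type 1 repeat of the extracellular part. The exons are aligned without gaps, with capitals at the 104 positions (61.9%) that are identical in all 4 and lower case elsewhere (Unc5a chr13:54997193-54997360, plus; Unc5b chr10:60778168-60778335, minus; Unc5c chr3:141768444-141768611, plus; Unc5d chr8:28760725-28760892, minus):
Unc5a exon: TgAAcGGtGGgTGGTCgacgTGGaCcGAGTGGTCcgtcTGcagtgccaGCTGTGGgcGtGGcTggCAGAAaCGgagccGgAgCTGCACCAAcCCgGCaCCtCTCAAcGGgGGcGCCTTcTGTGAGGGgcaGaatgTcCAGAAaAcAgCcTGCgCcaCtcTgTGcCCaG
Unc5b exon: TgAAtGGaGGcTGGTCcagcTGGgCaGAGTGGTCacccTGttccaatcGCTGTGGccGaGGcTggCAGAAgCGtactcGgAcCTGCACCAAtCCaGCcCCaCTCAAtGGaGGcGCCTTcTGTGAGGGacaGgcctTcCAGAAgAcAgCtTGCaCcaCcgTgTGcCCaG
Unc5c exon: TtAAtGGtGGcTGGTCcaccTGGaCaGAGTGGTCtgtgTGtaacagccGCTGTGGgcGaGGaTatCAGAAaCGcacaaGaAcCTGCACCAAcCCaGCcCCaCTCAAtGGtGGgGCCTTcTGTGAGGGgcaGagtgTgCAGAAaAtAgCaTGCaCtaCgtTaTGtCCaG
Unc5d exon: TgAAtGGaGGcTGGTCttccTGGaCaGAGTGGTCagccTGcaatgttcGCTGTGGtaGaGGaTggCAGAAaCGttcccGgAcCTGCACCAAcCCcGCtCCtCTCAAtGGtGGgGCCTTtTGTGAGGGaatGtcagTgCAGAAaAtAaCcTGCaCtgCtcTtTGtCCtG
Pairs of exons shared 75.0% to 77.4% of positions, so none of the 4 stood apart in sequence. Unc5a skipped the exon in most transcripts: it was held by 12.8% in mouse 1 and 7.05% in mouse 2, and by 16.9% and 11.8% in the read-based table. Unc5d kept it in most, with 76.6% and 79.5%, and 63.2% and 66.3% read-based. Unc5b and Unc5c held it in 100% of transcript TPM that spans it in both mice and tables. Whether any skipping form of them is annotated was not recorded. Without one the annotation alone fixes this value, so it does not show how they splice the exon. Unc5a was thus below Unc5d in every mouse and table, with no overlap. The lookup of this exon in all 4 genes was chosen after the Unc5a value had been seen, and Unc5a meets the rule on isoforms used here only at a minimum share of 8%, not at 10%.

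Unc5c instead had an optional 57-base exon (chr3:141786857-141786913, plus strand), shown in capitals:
Unc5c alternative exon: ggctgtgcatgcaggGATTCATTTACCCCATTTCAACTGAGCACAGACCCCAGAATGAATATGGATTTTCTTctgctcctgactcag
It was held by 16.7% and 29.9% of Unc5c transcripts, and by 22.5% and 32.7% read-based, so mouse 2 was higher in both tables. These percents count coding and non-coding transcripts alike. Retained-intron models held 23.5% and 31.6% of Unc5c TPM, and whether the difference lies in coding forms was not tested. Unc5d had a 15-base exon in 62.7% and 58.8% and a 39-base exon extension in 71.8% and 68.0%. The GPI-anchored netrin-Gs bind synaptic partner proteins rather than DCC and were more abundant than the secreted netrins: Ntng2 stood at 39.4 and 44.9 TPM and Ntng1 at 14.95 and 16.8. Ntng2 overlaps 6530402F18Rik on its own strand (997 counts in each mouse), which makes its level uncertain. Its leading form was Ntng2-204 (46.7% and 39.6%) in the alignment-based table and Ntng2-211, a form annotated as subject to nonsense-mediated decay, in the read-based one (33.7%). Ntng1 was led in both tables by such a form, Ntng1-206, with 28.5% and 34.0%, and read-based 36.5%. Its optional exons of 60, 66 and 135 bases were each in fewer than 30% of transcripts, and a 168-base one in 57.9% and 54.1%.

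Slits and Robos were both well expressed, Slits at 68.2 ± 10.3 TPM and Robos at 109 ± 9.67 in sum (SD, n = 2). Slit3 stood at 25.2 and 31.6, Slit1 at 21.8 and 26.1 and Slit2 at 13.9 and 17.8. Slit3 and Slit1 overlapped across the mice. Robo2, a Slit receptor of forebrain axons (ENSMUSG00000052516.19, chr16:73891839-74411825, minus strand), was the highest receptor of the group at 61.3 and 67.5. Robo1 followed at 22.2 and 30.7. Robo3, which is known from commissural axons and in mammals binds Slits weakly, stood at 15.6 and 14.6, and Robo4, an endothelial receptor, at 3.51 and 3.43. Of Robo3 TPM, 45.3% and 36.3% lay on retained-intron models.

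Very short exons set apart the forms of Slit2 and Robo2. They are shown with 15 flanking coding bases in lower case and the exon in capitals (Slit2 chr5:48191003-48191014, chr5:48220967-48220990 and chr5:48263641-48263667, plus strand; Robo2 chr16:74008775-74008786, minus strand):
Slit2 12-base exon: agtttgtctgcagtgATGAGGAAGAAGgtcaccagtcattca
Slit2 24-base exon: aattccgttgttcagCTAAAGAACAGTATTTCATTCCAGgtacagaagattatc
Slit2 27-base exon: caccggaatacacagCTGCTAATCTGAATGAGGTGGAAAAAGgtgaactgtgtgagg
Robo2 12-base exon: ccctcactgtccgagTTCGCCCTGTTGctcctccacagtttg
The 12-base Slit2 exon was in 64.4% and 60.9% of transcripts. The 24-base exon was in 21.6% and 38.5% and the 27-base exon in 20.7% and 10.9%. These differed between the mice in opposite directions, as they did in the read-based table (30.9% and 48.1%, 21.3% and 11.2%), which rests on the same 2 libraries. Such percents count all annotated transcripts that hold or skip an exon, coding or not. Retained-intron models held 12.63% and 27.45% of Slit2 TPM, and whether the shifts lie in coding forms was not tested. The 12-base Robo2 exon was in 63.3% and 60.6%, and Robo2 exons of 273 and 126 bases were in 46.6% and 42.4%, and in 26.0% and 20.6%. Slit1 was divided between Slit1-203 (50.7% and 48.4%) and Slit1-201 (44.0% and 45.6%), whose coding ends differ. Slit3 was led by Slit3-201 (78.2% and 73.2%) and Robo2 by Robo2-211, with 25.0% and 25.4%. Robo2-211 was not among the complete coding forms, so the Robo2 exons come from a comparison of Robo2-210 with Robo2-202.

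The semaphorins were the largest ligand group. Sema7a, the GPI-anchored class 7 semaphorin (ENSMUSG00000038264.8, chr9:57940112-57962865, plus strand), had the highest mean of them at 65.2 ± 10.7 TPM (SD, n = 2). It stood at 72.7 in mouse 1 and at 57.6, level with Sema6b, in mouse 2, all of it on 1 transcript, Sema7a-201. The transmembrane class 4 semaphorins summed to 111 ± 4.48 TPM (SD, n = 2) and class 6 to 101 ± 5.42. In class 4, Sema4d, a ligand of plexin-B1, led at 42.8 and 40.2, followed by Sema4a (26.0 and 29.4, above Sema4d in mouse 2 of the read-based table), Sema4f (17.6 and 17.2), Sema4g (8.39 and 11.4), Sema4b (7.12 and 8.43) and Sema4c (5.73 and 7.25). Of the last 3, Sema4g overlapped with Sema4b, and Sema4b with Sema4c, across the mice. In class 6, whose members bind class A plexins, Sema6b stood at 53.5 and 57.9, Sema6d at 19.5 and 22.8, Sema6a at 14.8 and 15.5, and Sema6c at 9.63 and 8.93. Sema5a (11.6 and 10.5) and Sema5b (7.07 and 9.01) made up class 5. Retained-intron models held 24.05% and 31.6% of Sema5a TPM and 28.4% and 44.7% of Sema5b TPM.

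The secreted class 3 semaphorins, the diffusible repellents, were lower, at 41.1 ± 0.88 TPM for 7 genes. Sema3a, which acts through neuropilin-1, stood at 11.1 and 12.7, Sema3c at 9.67 and 8.65, Sema3e, a direct ligand of plexin-D1, at 7.22 and 6.46, and Sema3f, which acts through neuropilin-2, at 6.0 and 7.32. Sema3e and Sema3f overlapped. Sema3d (2.69 and 2.64), Sema3g (2.57 in both) and Sema3b (1.21 and 1.39) were the lowest. The leading forms were Sema3a-201 (85.1% and 73.2%), Sema4d-204 (44.2% and 41.0%), Sema5a-201 (73.4% and 66.4%) and Sema6b-201 (90.1% and 91.2%). Sema4a was led by Sema4a-201 (38.1% and 19.7%) in the alignment-based table and by Sema4a-208 (16.3%) in the read-based one, where Sema4a-208 was listed at 0 in the other. Sema6a was led by Sema6a-201 (38.9% and 36.6%) and, read-based, by Sema6a-202 (29.1%).

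Among the receptors, plexin transcripts were far more abundant than those of the neuropilins. Class A plexins summed to 119 ± 3.84 TPM (SD, n = 2), class B to 57.5 ± 7.42, and the neuropilins to 26.3 ± 3.02. Plxnd1 was the highest single plexin at 50.1 and 53.4 in the alignment-based table, though below Plxna2 in the read-based one (65.1 and 60.9 against 68.0 and 75.8), with 34.4% and 30.5% of it on retained-intron models. Plxna2 stood at 43.5 and 46.7, Plxna1 at 33.4 and 31.1, Plxna4 at 29.5 and 31.0, and Plxna3 at 9.65 and 12.7, of which 51.6% and 45.9% lay on retained-intron models. Plxnb1, the Sema4d receptor, stood at 28.7 and 34.4, Plxnb2 at 18.8 and 23.9, and Plxnb3 at 4.84 and 4.5. Plxnc1, the Sema7a receptor, was lower than its ligand in both mice, at 18.1 and 21.1. The leading forms were Plxna2-201 (90.6% and 88.7%), Plxnb1-201 (60.2% and 57.4%), Plxnc1-201 (91.9% and 87.9%) and Plxnd1-201 (65.7% and 69.5%).

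The neuropilins changed order between the mice. Nrp2 (ENSMUSG00000025969.15, chr1:62703285-62818695, plus strand), the neuropilin of Sema3f, stood at 10.1 TPM in mouse 1 and 17.4 in mouse 2. Nrp1, that of Sema3a, stood at 14.1 and 11.1, so Nrp1 was the higher of the pair in mouse 1 and Nrp2 in mouse 2. Nrp2 is known in forms with different membrane-spanning and cytoplasmic ends, and the leading forms Nrp2-205 and Nrp2-204 leave the same exon and differ over their last 278 and 302 coding bases. The first 90 of these bases are given in capitals (ends at chr1:62795709-62795986 and chr1:62815333-62815634, plus strand):
Nrp2-205 end: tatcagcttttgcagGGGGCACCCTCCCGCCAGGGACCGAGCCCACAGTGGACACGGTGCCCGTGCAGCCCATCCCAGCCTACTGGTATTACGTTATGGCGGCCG
Nrp2-204 end: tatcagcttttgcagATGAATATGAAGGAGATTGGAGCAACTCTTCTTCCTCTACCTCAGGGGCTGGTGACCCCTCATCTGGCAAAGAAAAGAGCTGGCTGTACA
Nrp2-205 stood at 3.94 and 7.01 TPM and Nrp2-204 at 3.1 and 3.83. All 7 Nrp2 transcripts were higher in mouse 2, with Nrp2-203 at 0.48 and 2.56.

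**Figure D2:**
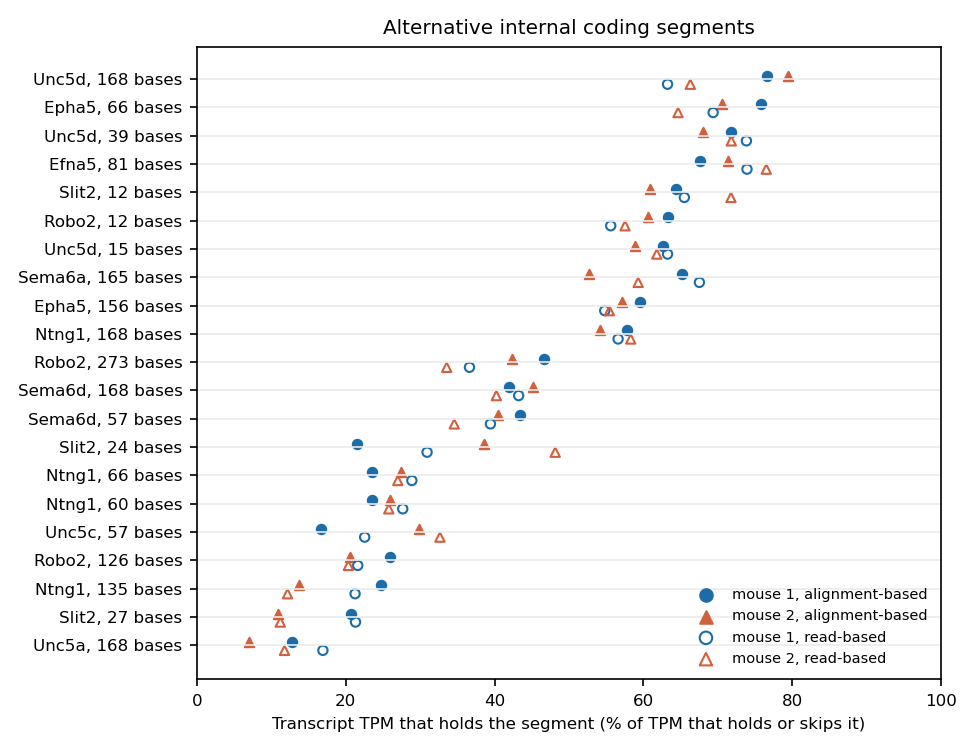
Percent of transcript TPM that holds each alternative internal coding segment, out of the TPM that holds or skips it, in mouse 1 (blue circles) and mouse 2 (red triangles) from the alignment-based (filled) and read-based (open) tables. All annotated transcripts that hold or skip a segment are counted, coding or not. Unc5a and Unc5d lie at opposite ends for the exon of 168 bases. The Slit2 segments of 24 and 27 bases shift in opposite directions between the mice.

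Across the 13 members with such alternatives (mean TPM of at least 10, and at least 2 complete coding forms of at least 8% each in both tables), 38 coding segments differed, 12 to 302 bases long (the search took 9 to 310). Of these, 21 lay inside the coding sequence of both forms, 20 of them as whole exons, and all 21 had a length divisible by 3. That count is no finding, since a segment was called internal only where both forms run on to a coding end beyond it, which a shift of frame can prevent. With a minimum of 10% the counts were 12 genes, 35 segments and 20 internal ones, all 20 divisible by 3. Both rules were set after the isoform values had been seen.

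In summed TPM, receptors exceeded ligands in the ephrin, netrin and Slit systems and not in the semaphorin system. Eph receptors summed to 316 and 326 TPM and ephrins to 101 and 113, a log2 ratio of 1.59 ± 0.08 (SD, n = 2), or 3.01-fold. DCC and UNC5 receptors summed to 88.1 and 97.2 TPM against 12.8 and 13.99 for the secreted netrins, a log2 ratio of 2.79 ± 0.01, or 6.91-fold. Robos exceeded Slits by 0.69 ± 0.09, or 1.61-fold. Semaphorins summed to 337 and 338 TPM, more than their plexins and neuropilins at 261 and 287, a log2 ratio of receptor to ligand of -0.30 ± 0.10. All 4 directions were shared by both mice and both tables. These sums compare transcripts of different numbers of genes, 20 semaphorins with 11 receptors and 8 ephrins with 14. Divided by the number of genes, receptors lay above ligands in the semaphorin system as well, in both mice and both tables. The semaphorin direction therefore belongs to the sums and not to the average gene. Over all members the median receptor (4.24 on the log2(TPM + 1) scale) lay above the median ligand (3.47).

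**Figure D3:**
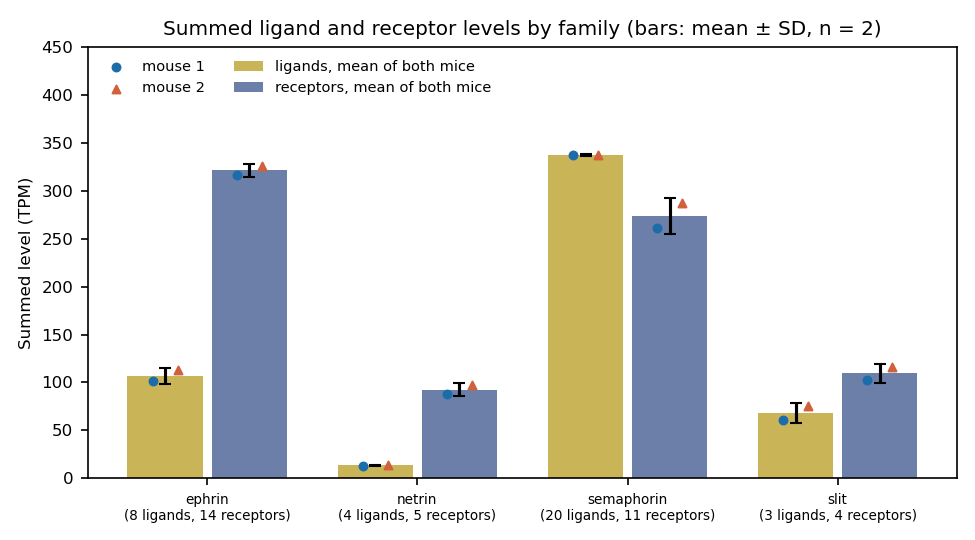
Summed TPM of ligands and receptors in each family, as the mean of both mice (bars) with SD, and each mouse as a point. Receptors lie above ligands for ephrins, netrins and Slits, and below them for semaphorins.

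Within subclasses, 44 of 51 pairs of neighbours in the order of levels did not overlap between the mice in the alignment-based table. The 7 that did were Epha7 with Epha6, Nrp2 with Nrp1, Slit3 with Slit1, Sema3e with Sema3f, Ntn3 with Ntn4, Sema4g with Sema4b, and Sema4b with Sema4c. The order was set by the mean of the same 2 values, and no share over other genes was computed, so the count only describes these members. Some of the 44 pairs overlapped in the read-based table. Plxna1 (41.9 and 40.0 TPM) did so with Plxna4 (41.4 and 43.6), and Sema4d (74.2 and 68.1) with Sema4a (61.5 and 71.4).

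Between the mice, differences between members were mostly small, and 1 passed the limit. Of 65 members that averaged 100 counts or more, Nrp2 alone differed by more than 0.5 on the log2 scale. It was higher in mouse 2 by 0.73 (exact binomial 95% counting interval 0.62 to 0.83, from 1192 and 1928 counts, TMM-scaled), and by 0.70 from the read-based counts. The interval covers counting error only. That is 1 of 65 members higher and 0 lower, where 1.19% of 11728 protein-coding genes were higher and 1.07% lower, 2.26% in all, so the share among members is near that of all genes. No member passed 1, as 0.247% of genes did. Nearest below the limit lay Epha8 at 0.47 and Plxna3 at 0.43, and on the other side Nrp1 at -0.42 and Sema7a at -0.40. The remaining 6 members had too few counts. The median ratio was 0.03 over members and -0.03 over all genes tested, and the median size of the ratio 0.158 and 0.104. The ratio was above 0 in 36 members and below 0 in 29, where 43.0% of all genes tested were above 0. The counting interval excluded 0 in 35 of the 65 members, and in 37.8% of all genes.

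**Figure D4:**
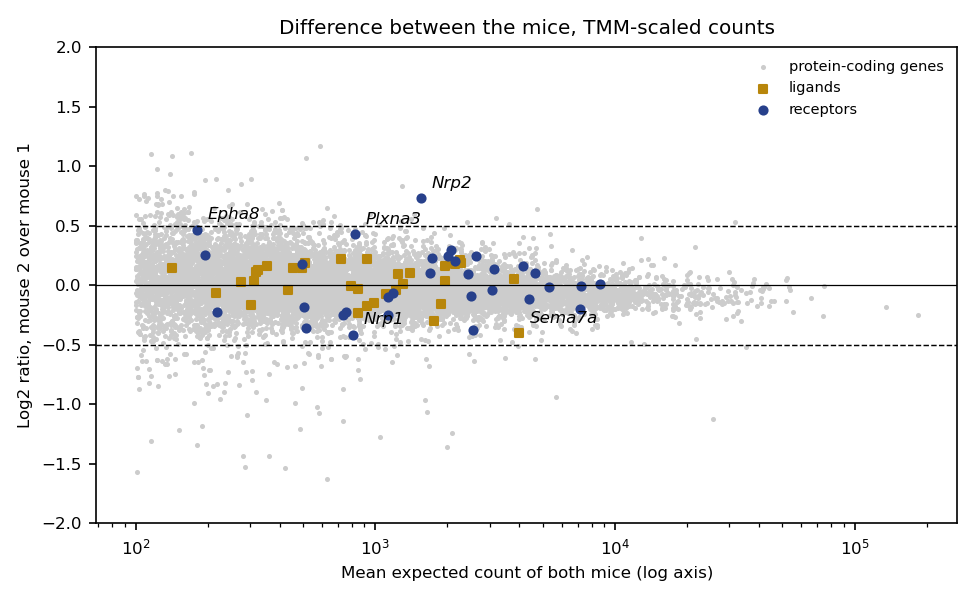
Log2 ratio of mouse 2 over mouse 1 from TMM-scaled expected counts against the mean count (log axis) for protein-coding genes that average 100 counts or more (grey), with ligands (squares) and receptors (circles) and dashed lines at 0.5 in each direction. Nrp2 is the only member outside the lines, and 4 genes, none of them a member, lie beyond the axis limit of 2.

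Other measures also moved between the libraries. Oligodendrocyte markers had a median ratio of -0.34, with all 6 lower in mouse 2. The choroid plexus gene Ttr stood at -0.74, from 184 and 107 counts. The 8 cortical markers had a median of -0.11, and 0 of them passed 0.5 in size. Of the 6 interneuron markers only Pvalb passed 0.5 in size, at -0.51, and their median was -0.03. The nuclear RNAs Rian, Malat1, Meg3 and Neat1 were higher in mouse 2 by 0.19, 0.40, 0.53 and 0.88. Counts on gene models of uncertain status that lie in introns of members on the same strand were higher too: 28 models in 13 hosts gave 1036 and 1461 counts, a log2 ratio of 0.53 (0.41 to 0.65), where 1476 such models in all protein-coding hosts gave 0.49. Unc5d held 3 of the models: Svet1, a marker transcript of upper-layer precursors, with 99 and 208 counts, Gm45652 with 71 and 147, and Gm9911 with 75 and 128. Without the Unc5d models the ratio over members was 0.34. The share of member TPM on retained-intron models was 8.57% and 10.5% (7.24% and 8.82% over all expressed protein-coding genes), while that of Nrp2 was 9.96% and 10.1%. The part of these differences in the ratios of single members was not tested.

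The quantification tables were close for most members at the gene level. Both were scaled to nuclear protein-coding genes. Of 68 members with a mean TPM of at least 1 in the alignment-based table, 0 differed by more than 1 on the log2(TPM + 1) scale, where 1.36% of genes did. Among these 68 the widest gaps, read-based minus alignment-based, were Plxnb2 at -0.63 and Sema4a at 0.55, followed by Plxnd1 at -0.41 and Ephb6 at 0.37. Epha2, below that minimum at a mean of 0.685 TPM, had a gap of 1.19. At the isoform level the leading transcript was the same in both tables for 57 of 64 members with at least 2 transcripts (89.1%, against 75.9% of all such genes). In the alignment-based table it was not protein coding in 2 of the 64, Ntng1 and Sema3b, against 8% of such genes, and in the read-based table in 3, Ntng1, Ntng2 and Robo4. Members had 442 annotated transcripts, up to 23 for a single gene, Slit2, and 5 members had 1.

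The genes around the cues and receptors were widely expressed too, where 58.6% of all protein-coding genes were. Of 24 coreceptors and alternative ligands, 22 were expressed, with Ptprs, a receptor phosphatase, at 281 ± 24.5 TPM (SD, n = 2), the adhesion molecule Nrcam at 232 ± 6.05 and the Robo3 ligand Nell2 at 213 ± 1.94. Draxin (0.09 and 0.19) and Cxcr4 (0.48 and 0.68) were below 1. Of 60 cytoplasmic effectors 59 were expressed, led by the Rac regulator Chn1, which acts below EphA4, at 697 ± 18.2, the actin-severing protein Cfl1 at 594 ± 16.5 and the collapsin response mediator Dpysl2 at 278 ± 2.79. Trim67 was just below, at 0.87 and 1.04. Of 9 proteases that cut guidance proteins 8 were expressed, with Bace1 at 37.4 ± 2.23, Adam10 at 30.6 ± 0.60 and the gamma-secretase subunit Ncstn at 30.2 ± 1.99, and Mmp9 was below 1 (0.54 and 0.75). At the same minimum of 100 counts, 22, 58 and 7 genes of these lists could be compared between the mice. Of these 0 passed 0.5, where 2.26% of all protein-coding genes tested did.

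The members were on the whole long genes, though not all were. Their median genomic span was 56.6 kb, against 26.0 kb for expressed protein-coding genes, and 33 of the 71 spanned over 100 kb, where 16.3% of expressed protein-coding genes did, while 25 spanned less than the 26.0 kb median. Dcc reached 1097 kb and Epha6 952 kb. In the 250 bases upstream of the start (RefSeq promoters of GRCm38.p6, matched for 61 members), the members had a median of 17 CG dinucleotides (range 2 to 46). The 16522 protein-coding genes matched, expressed or not, had a median of 11. The shares were closer for the ratio of observed CG dinucleotides to those expected from base content. A ratio of 0.6 was reached by 55.7% of the matched members and 49.3% of the matched protein-coding genes.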

How the data were processed

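Total RNA of 2 libraries of 1 group was measured. The authors deposited expected counts, TPM and, per transcript, the percent of a gene's TPM, estimated from a transcriptome alignment, and estimated counts and TPM estimated directly from the reads, on mm10 with GENCODE M21, per the file headers and the deposited listing. Not given in the sources used here are the aligner, the quantification tools and whether strand was used. Expected counts split reads between overlapping genes and isoforms, and TPM is a share of all RNA, so both depend on that model. The hybrid mice carry CAST alleles, and the values rest on the reference sequence.

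Members were found by symbol and their lists, roles and the rule for named genes were chosen with earlier results of these data known. All members were named with their levels, the leading isoform of the top member of each subclass, isoforms that differ between tables or are not coding (mean TPM of at least 10), members past or nearest 0.5 between the mice, and the 3 highest genes of each neighbouring list. Each level is the TPM the authors deposited, summarised as mean and SD over 2 mice. Ratios used expected counts rounded to whole numbers, TMM factors from edgeR 4.0.16 (filterByExpr, 17529 genes), a prior count of 0.5 and a minimum mean count of 100, with exact binomial 95% intervals. The calculation was tested on simulated data. Alternatives were other TPM and count minimums, a pseudocount of 0.1, a prior count of 2, DESeq2 1.42.0 size factors, library and spike-in totals, TPM rescaled to nuclear protein-coding genes, the read-based table and each mouse alone. Software was R 4.3.3 and Python 3.11.15 with scipy 1.17.1, pandas 2.3.3, matplotlib 3.10.9 and numpy 2.4.6.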

Additional observations from a re-analysis of the deposited data

How the results depend on the processing

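The count of expressed members, 68, fell to 54 at a minimum of 5 TPM. It was 68 or 69 under every other alternative run, with Epha2 added in the read-based table (69). The median member level of 3.93 on the log2 scale was 3.84 with a pseudocount of 0.1, 3.98 over members with at least 10 counts, 4.48 in the read-based table and 5.02 when TPM was rescaled to the nuclear coding genes alone, so levels depend on what TPM is scaled to. No family ratio of summed TPM changed direction: read-based, the netrin value was 2.50 and the semaphorin value -0.52. Without the neuropilins, an alternative chosen after seeing the data, the semaphorin value was -0.45. Ratios between mice cannot be formed from 1 mouse, so leaving out a mouse was run for levels and isoforms only. The count of members past 0.5, 1 as reported, was 0 at a threshold of 1, 2 with library totals (Nrp2 and Epha8) and 3 with no count minimum (with Efna4 and Epha1, at 2 to 15 counts). Spike-in totals moved the median of all genes to 0.37 and that of members to 0.43, and put 27 members past 0.5, all higher in mouse 2, where 22.1% of all genes were higher by over 0.5. Under that scaling Nrp2 stood at 1.13 and Nrp1 at -0.02. The log2 ratio of Nrp2 over Nrp1 ran from -0.48 in mouse 1 to 0.65 in mouse 2, and that of Ntn3 over Ntn4 from -0.011 to 0.128, so both orders reversed. Of 20 leading isoform shares, 18 moved by more than 1 SD in the read-based table, all but those of Efna3-201 and Sema7a-201. The Sema7a-201 share was 100% in both mice and both tables. It could not have moved if no other form is annotated. Leaving out 1 of 2 mice cannot move a mean by 1 SD, so those values say nothing about stability. No paired analysis was possible because both mice belong to 1 group. With 2 libraries, members under 100 counts, such as Efna4 and Epha1, could not be compared.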
